A study of Mus musculus with 8 samples.

Results

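The genes described here are the 2 cryptochromes, Cry1 and Cry2, and 7 genes for enzymes that set how long the cryptochrome and period proteins last: the F-box protein Fbxl21, the kinases Csnk1d and Csnk1e, the F-box proteins Btrc and Fbxw11, and the deubiquitinases Usp7 and Usp2. Members were all probe sets annotated to one of these genes alone, which gave 27 probe sets for 8 of the 9 genes, out of 30445 probe sets and 13307 named genes in the table. No probe set used here is annotated to Fbxl21, so it was not analysed here. RNA was taken from primary fibroblasts of mouse embryos, cultures that have not been made immortal, and each line was hybridised to its own Affymetrix array. There were 4 independent wild-type (WT) lines and 4 independent lines that carry Cry1-/- together with Cry2-/- (double knockout, Cry DKO). Both groups had a near-C57BL/6J background, with more than 7 backcrosses, and both grew untreated and unsynchronised in DMEM/F10 medium with 10% serum at 3% oxygen. The sources used here give neither the age of the embryos nor the design of the deleted alleles. All values are log2 signals, n = 4 lines per genotype, and differences are Cry DKO minus WT with the SE and the Benjamini-Hochberg adjusted p of limma, adjusted over all 30445 probe sets. A probe set was called at an adjusted p under 0.05.

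In the circadian clock, CLOCK and ARNTL activate the Per and Cry genes through E-boxes, and the PER and CRY proteins enter the nucleus and repress that activation. The length of a cycle depends on how fast PER and CRY are destroyed: CSNK1D and CSNK1E phosphorylate PER, BTRC and FBXW11, the paired beta-TrCP proteins, recognise phosphorylated PER for ubiquitination, and F-box proteins of the FBXL group, such as FBXL21, bind CRY. USP7 and USP2 remove ubiquitin and can stabilise CRY, and USP2 also acts on PER1 and ARNTL. Most of this control acts on proteins, which an RNA array does not measure.

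The arrays were alike in scale, with a median of 6.78 in every array, and correlated at 0.973 to 0.977 within a genotype and 0.967 to 0.974 between genotypes. Among all 30445 probe sets 1023 were called, 560 of them higher and 463 lower in Cry DKO lines. Leaving out any 1 line lowered this count. Without WT replicates 1 to 4 in turn it was 573, 552, 484 and 727. Without Cry DKO replicates 1 to 4 in turn it was 706, 678, 655 and 775. Fibroblast markers were bright in all lines by their list mean (all 10 genes measured, mean signal 11.00 to 11.16 in the WT group and 10.86 to 11.00 in Cry DKO lines, 0 of 19 probe sets called and 4 at an unadjusted p under 0.05 in limma, against 17.3% of all). These 4 had differences below 0, and 2 of 19 were lower without overlap (5.64% of all probe sets). The probe sets of Dcn and Pdgfra, 3 of the 19, lay under the floor defined below. Markers of macrophages and blood cells were present too: 11 of 25 probe sets of 17 genes were called higher, against 1.84% of all probe sets. Of the 25, 23 lay above the floor defined below. Their mean signal was 7.68 to 8.28 in the WT group and 8.34 to 9.20 in Cry DKO lines. Proliferation markers were called higher in 12 of 16 probe sets, against the same 1.84%. Their means were 9.12 to 9.29 in the WT group and 9.57 to 9.75 in Cry DKO lines. Of epithelial markers 1 of 3 probe sets was called higher (Krt8, with a mean of 4.48 below the floor), 2 had an unadjusted p under 0.05, and the list median was -0.26, with Krt18 at -0.30 and Cdh1 at -0.26. Of endothelial markers 0 of 4 were called, with 1 at an unadjusted p under 0.05 in limma, and all 4 lay below the floor.

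None of the 27 probe sets of the cryptochromes and turnover enzymes was called (0 of 27 in limma), where 3.36% of all probe sets were, 1.84% higher and 1.52% lower. At an unadjusted p under 0.05 there were 8 of 27, against 17.3% of all probe sets. Groups did not overlap for 2 of 27, against 11.2% of all: 1 was higher (5.61% of all) and 1 lower (5.64% of all). The median difference was -0.016 over the 27 and -0.0044 over all probe sets, and the median size of a difference was 0.15 in both. Of the 27, 13 lay above 0 and 14 below 0. The floor used here as a mark of dim signal is the 40th percentile of the mean over the 8 arrays, 6.05; 20 of the 27 lay at or above it, and 0 of these 20 were called when limma was fitted above the floor alone, where 6.57% were. Probe sets of 1 gene read the same RNA and are not independent. In these bulk samples, fewer cells of a type and less RNA per cell cannot be told apart.

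**Figure D1:**
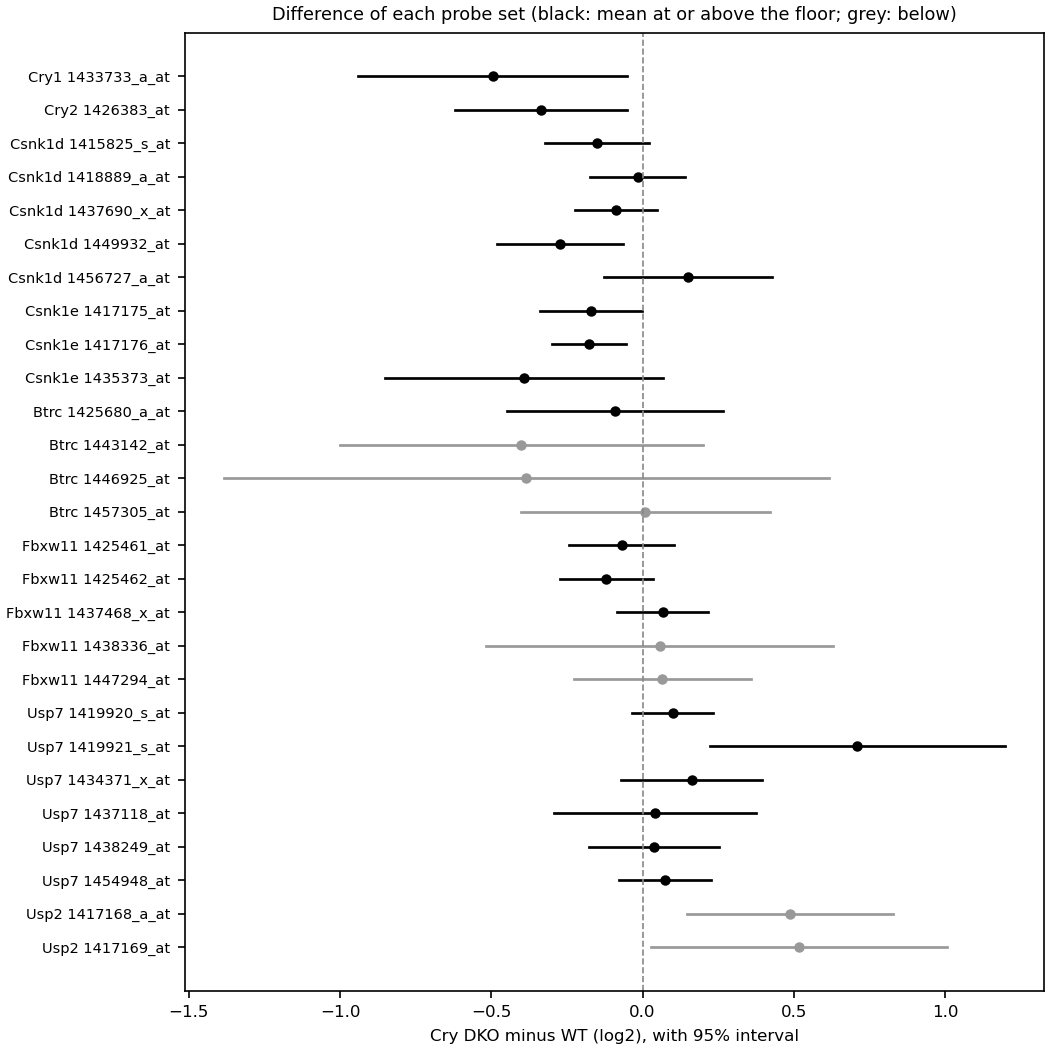
Difference between Cry DKO and WT lines (x axis, log2) for each of the 27 probe sets (y axis), with points for the estimate and lines for the 95% interval from limma; black marks a mean signal at or above 6.05 and grey one below it. The 6 Usp7 and 2 Usp2 probe sets lie to the right of 0 and the 3 Csnk1e probe sets to the left, and none passed an adjusted p of 0.05.

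The cryptochromes are the deleted genes. Their mean signals in Cry DKO lines lay above the floor of 6.05, at 6.29 for Cry1 and 6.87 for Cry2. For Cry1 this was near the floor, and Cry DKO replicate 2 lay below it. Whether the Cry1 signal in Cry DKO lines exceeds background was not tested. Cry1 (1433733_a_at) read 7.27, 6.51, 6.95 and 6.42 in WT replicates 1 to 4 and 6.32, 5.84, 6.50 and 6.50 in Cry DKO replicates 1 to 4. The groups overlapped: WT replicate 4 lay below Cry DKO replicates 3 and 4, and Cry DKO replicate 2 was the lowest of all. The means were 6.79 ± 0.40 (SD, n = 4) and 6.29 ± 0.31, a difference of -0.50 (SE 0.20, limma adjusted p = 0.232), with a 95% interval from -0.94 to -0.05. On a linear scale this is -29.1%, with an interval from -47.9% to -3.5%. These values describe array signal, and the share of Cry1 RNA left was not tested. In the exact two-sided permutation test over 70 assignments p was 0.114, where the smallest possible value is 0.0286. Without WT replicate 4 the difference was -0.62 and the exact p was 0.0286, the smallest that 7 lines allow. Without WT replicate 1 the difference was -0.34 (limma adjusted p = 0.467) and without Cry DKO replicate 2 it was -0.35 (limma adjusted p = 0.42), so its size depended on single lines in both directions.

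Cry2 (1426383_at) read 7.15, 7.34, 6.97 and 7.34 in the WT group and 6.86, 7.12, 6.85 and 6.64 in Cry DKO lines. All Cry DKO lines but replicate 2 lay below all WT lines. The means were 7.20 ± 0.18 (SD, n = 4) and 6.87 ± 0.20, a difference of -0.34 (SE 0.13, limma adjusted p = 0.201), with a 95% interval from -0.62 to -0.05, and the exact permutation p was 0.0571. For a call at this spread the difference would have had to reach 0.82 for Cry1 and 0.52 for Cry2. The sources used here do not place the probes inside or outside the deleted exons, so these signals do not check the genotype labels. In the order of the lines, the lowest Cry1 signal was in Cry DKO replicate 2, where Cry2 was the highest of the Cry DKO group.

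Cry1 is itself a target of the clock, so the bases before its start site are shown beside those of Cry2, as the 250 bases before the start from RefSeq (GRCm38.p6). The motifs searched, on both strands of windows of 300 bases that run to 50 bases after the start, were the E-box CACGTG, the D-box TTANGTAA, the core of the RORE TAGGTCA and the cAMP element TGACGTCA; capitals mark a match. Windows were found for 7 of the 9 genes. The first sequence lies at chr10:85185055-85185304 on the minus strand and the second at chr2:92434070-92434319 on the minus strand.
Cry1: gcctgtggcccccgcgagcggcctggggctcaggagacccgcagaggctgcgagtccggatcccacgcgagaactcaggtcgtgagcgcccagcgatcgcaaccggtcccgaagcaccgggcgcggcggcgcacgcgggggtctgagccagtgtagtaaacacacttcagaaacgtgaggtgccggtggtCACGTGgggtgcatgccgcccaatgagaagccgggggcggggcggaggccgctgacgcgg
Cry2: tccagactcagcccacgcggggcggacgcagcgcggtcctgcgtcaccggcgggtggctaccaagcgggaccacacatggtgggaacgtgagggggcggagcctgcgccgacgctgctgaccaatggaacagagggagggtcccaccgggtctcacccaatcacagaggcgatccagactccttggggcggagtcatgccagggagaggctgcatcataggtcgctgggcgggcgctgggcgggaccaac
Cry1 held 1 E-box, whose first base is 60 bases before the start, and no match to the other motifs; Cry2 held no match. Of all 32851 promoter windows, 7.15% held an E-box, 2.32% a D-box, 2.61% a RORE core and 1.79% a cAMP element. A match is a stretch of letters, not a measured binding site, and the windows are short.

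The genes whose signal was most like that of the cryptochromes over the 8 lines, by Pearson correlation among 16346 single-gene probe sets at or above the floor, were Cdip1 (r = 0.967), Tgfb2 (0.953), a growth factor of the TGF-beta family, and Sdc2 (0.947), a cell surface proteoglycan, for Cry1. For Cry2 they were Chkb (0.972), a choline kinase, Gpr176 (0.972), an orphan receptor, and Dnm2 (0.969), a dynamin. With the genotype means taken off, r was 0.946, 0.930 and 0.935 for Cry1 and 0.959, 0.953 and 0.951 for Cry2, so these likenesses describe differences between lines within a genotype. They are the highest of many correlations over 8 arrays that share 1 normalisation, and none of the 6 genes was called in limma (adjusted p from 0.0927 to 0.404).

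The casein kinases were measured by 8 probe sets, most of them bright. Csnk1e, the kinase mutated in the tau hamster, had 3, with differences of -0.18, -0.17 and -0.39. Probe set 1417176_at read 10.26, 10.26, 10.34 and 10.36 in the WT group and 10.08, 10.13, 10.20 and 10.12 in Cry DKO lines. The groups did not overlap, every Cry DKO line lying below every WT line, with a gap of the same order as the spread within a group. The means were 10.31 ± 0.05 (SD, n = 4) and 10.13 ± 0.05, a difference of -0.18 (SE 0.06, limma adjusted p = 0.115), which is -11.5% on a linear scale. The 95% interval ran from -0.30 to -0.05, and a call would have needed a size of 0.22. Over the 19 alternative settings run for it the adjusted p lay between 0.0637 and 0.258. In the fits without 1 line the difference stayed between -0.20 and -0.16.

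The second Csnk1e probe set (1417175_at) read 9.88, 9.77, 10.05 and 9.87 in the WT group and 9.55, 9.78, 9.79 and 9.77 in Cry DKO lines. Its groups overlapped because WT replicate 2 lay below Cry DKO replicates 2, 3 and 4, and Cry DKO replicate 1 stood below the rest. The difference was -0.17 (SE 0.08, limma adjusted p = 0.283). The third (1435373_at), just above the floor, had means of 6.40 ± 0.31 (SD, n = 4) and 6.01 ± 0.40, and its difference of -0.39 (SE 0.21, adjusted p = 0.377 in limma) had a 95% interval from -0.85 to 0.07. Without Cry DKO replicate 4, the lowest line at 5.43, it was -0.20. The mean of the 3 probe sets, a summary chosen after seeing the data, was 8.87 ± 0.15 in the WT group and 8.62 ± 0.15 in Cry DKO lines, which makes a difference of -0.25 (SE 0.09, limma adjusted p = 0.162).

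Csnk1d, the partner kinase, had 5 probe sets, and they did not move alike. The differences were -0.27 (1449932_at), -0.15 (1415825_s_at), -0.087 (1437690_x_at), -0.016 (1418889_a_at) and 0.15 (1456727_a_at). Probe set 1449932_at read 9.70, 9.70, 9.66 and 9.59 in the WT group and 9.39, 9.45, 9.62 and 9.09 in Cry DKO lines, and its adjusted p in limma was 0.155. WT lines lay within a narrow band here, and only Cry DKO replicate 3 reached it. Without Cry DKO replicate 4 the difference was -0.17. Probe set 1456727_a_at ran against the other 4 over the 8 lines, with correlations from -0.52 to -0.70, whereas those 4 correlated with each other at 0.52 to 0.89. It read 9.69, 9.85, 9.92 and 10.17 in the WT group and 9.73, 9.95, 10.19 and 10.36 in Cry DKO lines, which makes a difference of 0.15 (SE 0.13, limma adjusted p = 0.61). It was 0.049 without Cry DKO replicate 4, but 0.26 when Cry DKO replicate 1 was left out. The mean over the 5 was 9.89 ± 0.05 in the WT group and 9.82 ± 0.07 in Cry DKO lines, with a 95% interval of the difference from -0.19 to 0.04.

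**Figure D2:**
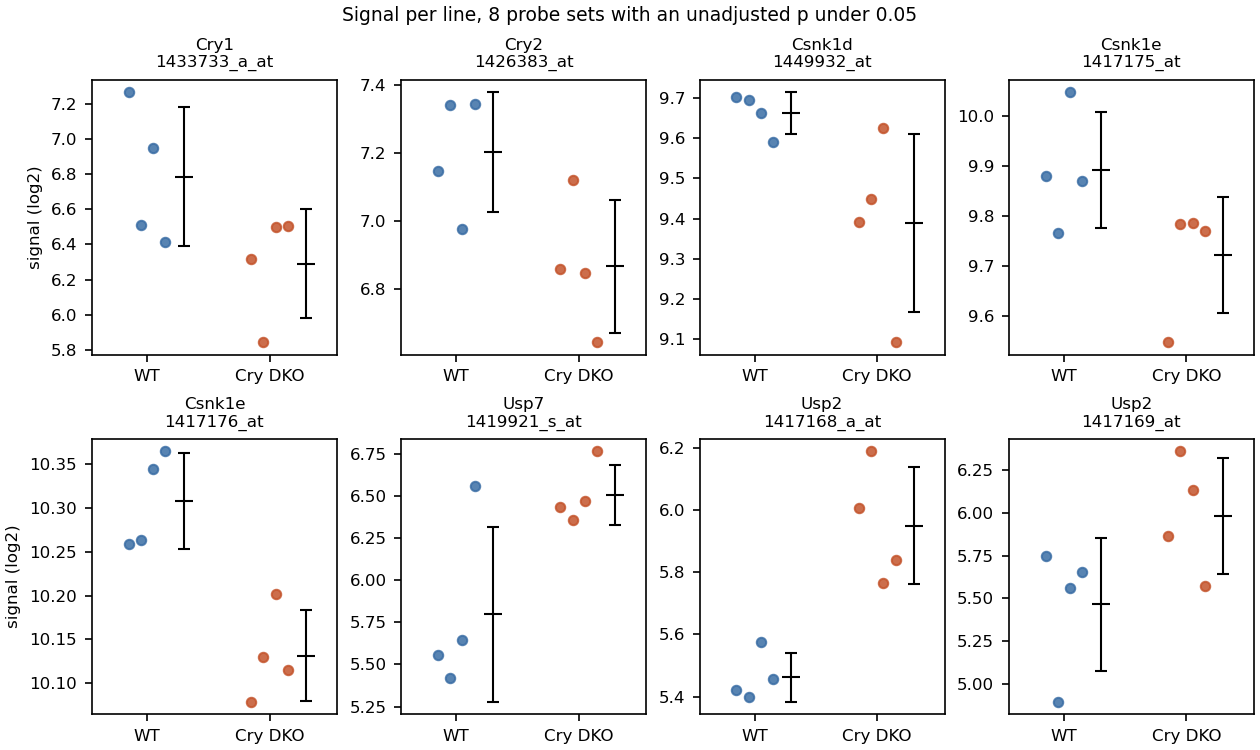
Signal (y axis, log2) of each line for the 8 probe sets with an unadjusted p under 0.05 in limma, WT in blue and Cry DKO in orange; the bar beside each group is the mean with its SD (n = 4), and the panels have different scales. The groups are apart for Usp2 1417168_a_at and Csnk1e 1417176_at and overlap in the other 6 panels, where single lines such as WT replicate 4 of Usp7 1419921_s_at reach the other group.

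The beta-TrCP genes, whose proteins recognise phosphorylated PER, showed small differences where their probe sets were bright. Fbxw11 had 5 probe sets, with differences from -0.12 to 0.07 and adjusted p-values of 0.431 or more in limma. Probe set 1437468_x_at read 12.22, 12.10, 12.04 and 11.99 in the WT group and 12.33, 12.05, 12.15 and 12.09 in Cry DKO lines, which overlapped over most of their range. The difference was 0.07 (SE 0.07), with a 95% interval from -0.08 to 0.22, so a change beyond these bounds is not covered by it. Probe set 1425462_at read 10.33, 10.45, 10.28 and 10.21 in the WT group and 10.25, 10.25, 10.26 and 10.04 in Cry DKO lines, which makes a difference of -0.12 (SE 0.07). Cry DKO replicate 4 alone lay below all WT lines there. The mean of the 5 probe sets was 8.20 ± 0.11 (SD, n = 4) in the WT group and 8.20 ± 0.06 in Cry DKO lines, with an interval of the difference from -0.16 to 0.16.

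Btrc had 4 probe sets, 3 of them below the floor. The one above it (1425680_a_at) read 7.38, 7.45, 7.23 and 6.95 in the WT group and 6.81, 7.61, 7.07 and 7.16 in Cry DKO lines. Cry DKO lines held both the lowest and the highest value. The difference was -0.09 (SE 0.16, limma adjusted p = 0.833), with a 95% interval from -0.45 to 0.26. The dim probe sets had differences of -0.40 (1443142_at), -0.38 (1446925_at) and 0.0086 (1457305_at), with SEs of 0.28, 0.46 and 0.19. In the fits without 1 line, 1443142_at ran from -0.63 (without WT replicate 1) to -0.25 (without Cry DKO replicate 2) and 1446925_at from -0.69 (without Cry DKO replicate 4) to -0.055 (without Cry DKO replicate 2). A call of 1446925_at would have needed a difference of 1.84. The mean signals of these 3 ranged from 3.78 to 5.48.

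All 8 probe sets of the deubiquitinases had differences above 0. Usp2 is a clock-controlled gene in many tissues, and both of its probe sets were below the floor, with means of 5.71 and 5.72. Probe set 1417168_a_at read 5.42, 5.40, 5.58 and 5.46 in the WT group and 6.01, 6.19, 5.76 and 5.84 in Cry DKO lines. The groups did not overlap: the lowest Cry DKO line lay above the highest WT line. The means were 5.46 ± 0.08 (SD, n = 4) and 5.95 ± 0.19, a difference of 0.49 (SE 0.16, limma adjusted p = 0.12), or 40.2% on a linear scale, with a 95% interval from 0.15 to 0.83. A call would have needed 0.63. The adjusted p lay between 0.0927 and 0.259 over 17 alternative settings, and the difference between 0.41 and 0.55 in the fits without 1 line.

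Usp2 probe set 1417169_at read 5.75, 4.90, 5.56 and 5.66 in the WT group and 5.87, 6.36, 6.13 and 5.57 in Cry DKO lines. Here Cry DKO replicate 4 lay among the WT lines and WT replicate 2 lay far below the others. The difference was 0.52 (SE 0.23, limma adjusted p = 0.262), and 0.33 without WT replicate 2. The mean of both probe sets was 5.46 ± 0.21 in the WT group and 5.97 ± 0.23 in Cry DKO lines, which makes a difference of 0.50 (SE 0.17) at an adjusted p of 0.114 in limma. By this mean the lowest Cry DKO line, at 5.71, lay above the highest WT line, at 5.58. The share of all genes whose groups are apart by such a mean was not counted. The macrophage and proliferation markers were higher in the same lines; their part in the difference was not tested.

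The 250 bases before the Usp2 start in the same RefSeq table, at chr9:44084670-44084919 on the plus strand, are shown because Usp2 was the turnover enzyme whose probe sets both had an interval above 0.
Usp2: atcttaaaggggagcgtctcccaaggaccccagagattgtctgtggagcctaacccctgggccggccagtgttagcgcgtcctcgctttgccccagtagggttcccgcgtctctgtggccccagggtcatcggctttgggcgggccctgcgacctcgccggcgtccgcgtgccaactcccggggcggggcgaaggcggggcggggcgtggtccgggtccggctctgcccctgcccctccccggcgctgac
None of the 4 motifs matched in this window, nor in those of Csnk1e, Fbxw11, Fbxl21 and Usp7, which says only that these letters are not in these windows.

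Usp7, a nuclear deubiquitinase that also acts on the p53 pathway, had 6 probe sets, all with a difference above 0, from 0.04 to 0.71. The highest came from 1419921_s_at, just above the floor, which read 5.56, 5.42, 5.65 and 6.56 in the WT group and 6.43, 6.36, 6.47 and 6.76 in Cry DKO lines. WT replicate 4 lay within the Cry DKO range and the other 3 WT lines well below it. The means were 5.80 ± 0.52 (SD, n = 4) and 6.51 ± 0.18, a difference of 0.71 (SE 0.22, limma adjusted p = 0.113). Without WT replicate 4 the difference was 0.96 and passed (limma adjusted p = 0.0115); it did not pass in the other fits without 1 line, where it lay between 0.58 and 0.76.

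The 3 bright Usp7 probe sets gave much smaller values. Probe set 1419920_s_at read 9.89, 9.77, 9.83 and 9.90 in the WT group and 9.98, 9.83, 9.99 and 9.99 in Cry DKO lines, which makes a difference of 0.10 (SE 0.06, limma adjusted p = 0.45). All Cry DKO lines but replicate 2 lay above all WT lines. Probe set 1454948_at had a difference of 0.07 (SE 0.07) and 1434371_x_at one of 0.16 (SE 0.11), both with overlapping groups. The remaining pair, 1437118_at and 1438249_at, had differences of 0.04 each. The 6 did not run alike over the 8 lines: 1437118_at correlated at -0.82 with 1434371_x_at and at -0.63 with 1454948_at. Those last probe sets correlated with each other at 0.79. The mean of the 6 was 8.12 ± 0.09 (SD, n = 4) in the WT group and 8.31 ± 0.05 in Cry DKO lines, which makes a difference of 0.19 (SE 0.07, limma adjusted p = 0.149). The largest part of it came from 1419921_s_at, just above the floor. Every Cry DKO line lay above every WT line by this mean, though Cry DKO replicate 2 and WT replicate 4 nearly coincided. In each of the 6 probe sets the groups overlapped, and the share of all genes apart by such a mean was not counted.

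**Figure D3:**
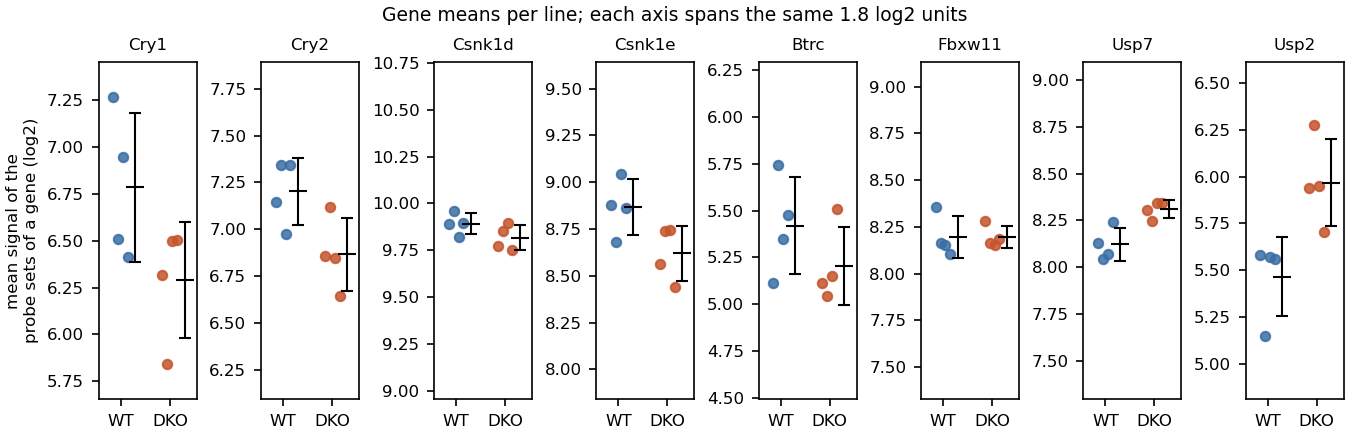
Mean signal over the probe sets of each gene (y axis, log2) per line, WT in blue and Cry DKO (DKO) in orange, with the mean and SD of each group (n = 4); every axis spans 1.8 log2 units. Usp2 is higher in Cry DKO lines by 0.50, Usp7 by 0.19 (from 0.04 to 0.71 over its 6 probe sets), and Csnk1e lower by 0.25. Fbxw11 has the same mean of 8.20 in both groups. None of the 8 genes passed an adjusted p of 0.05 in limma.

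Other genes of the pathway were described by 5 lists, with 82 measured genes in all. Of 37 probe sets of 12 other ubiquitin ligase genes 0 were called in limma, with 4 at an unadjusted p under 0.05 (17.3% of all probe sets) and a median difference of 0.03. Their lowest p-values belonged to Dtl, a substrate receptor of the CUL4 ligase (0.43 in 1434695_at, SE 0.14, limma adjusted p = 0.118), and Mdm2, the ligase of p53 (-0.27 in 1427718_a_at, SE 0.09, adjusted p = 0.124). The other Dtl probe sets, all below the floor, had 0.50, 0.40, 0.42 and 0.022. The other Mdm2 probe sets had -0.061 and 0.34, the latter in 1457929_at with a mean of 4.38, below the floor (SE 0.31). Of 46 probe sets of 15 other kinases 0 were called in limma, with a median of -0.05. An unadjusted p under 0.05 was reached by 7 of the 46, against 17.3% of all probe sets, each with a difference below 0. Mapk9, a stress kinase, had -0.30 (SE 0.11, limma adjusted p = 0.167) and Csnk2a2, a catalytic subunit of casein kinase 2, -0.33 (SE 0.13, adjusted p = 0.194). These are the probe sets of smallest p: the other 2 of Mapk9 had -0.056 and 0.022, and the other 6 of Csnk2a2 ranged from -0.049 to 0.53. The 0.53 came from 1419936_at, with a mean of 3.18, below the floor (SE 0.49). The median over all probe sets was -0.0044.

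Of 14 probe sets of 6 phosphatase genes 0 were called in limma, with 5 at an unadjusted p under 0.05 (17.3% of all probe sets) and a median of 0.15. Ppp5c, a phosphatase that acts on CSNK1E, read 9.03, 8.89, 8.89 and 8.98 in the WT group and 9.18, 9.33, 9.21 and 9.11 in Cry DKO lines (1451242_a_at). Of the 14 probe sets 6 were higher without overlap, against 5.61% of all probe sets. These were all 3 of Ppp5c, which are not independent, and probe sets of Ppp1cc, Ppp1ca and Ppp2ca. The difference of Ppp5c 1451242_a_at was 0.26 (SE 0.07, limma adjusted p = 0.0669), and it passed when only probe sets at or above the floor were fitted (adjusted p = 0.0483 in limma). Ppp1cb, a catalytic subunit of protein phosphatase 1, had 0.24 (SE 0.09, adjusted p = 0.199 in limma).

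Among 101 probe sets of 41 other ubiquitin specific proteases 3 were called, against 3.36% of all probe sets, all higher and all of Usp1, a deubiquitinase of DNA repair, with a list median of -0.0056. Probe set 1451080_at read 10.26, 10.15, 10.18 and 10.09 in the WT group and 10.56, 10.56, 10.61 and 10.60 in Cry DKO lines, without overlap. Usp1 rose by 0.41 (SE 0.06, limma adjusted p = 0.00273), and its other probe sets by 0.41 and 0.39. Its call ended when limma was run with no intensity trend (adjusted p = 0.0589). The proliferation markers, by 0.49 at the median, were higher in the same lines; their part in the rise was not tested.

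Among the partners and substrates of the turnover enzymes, of 20 probe sets of 8 clock genes 9 were called higher (1.84% of all probe sets) and 1 lower (1.52% of all), with a median of 0.76. Per2 had 8.37 ± 0.10 (SD, n = 4) in Cry DKO against 5.53 ± 0.29 in WT lines (1417602_at), a rise of 2.84 (limma adjusted p = 1.09e-06). Its other probe sets had 2.17 and 1.91. Per3 rose by 1.72 in 1421087_at. Its other probe sets had 1.49, 1.45, 0.80 and 0.74, the last pair not called (limma adjusted p = 0.176 and 0.264). These other Per2 probe sets and all of Per3 had means below the floor. The nuclear receptor gene Nr1d2 rose by 0.98 in both probe sets. Arntl, the partner of CLOCK, fell by 1.56 in 1425099_a_at. Its other probe set had -0.66 and was not called (limma adjusted p = 0.117). Per1 rose by 0.79 (limma adjusted p = 0.0469), a call that ended in 7 of the 8 fits without 1 line: the adjusted p was 0.0719, 0.067, 0.0513 and 0.0569 without WT replicates 1 to 4 and 0.102, 0.096 and 0.112 without Cry DKO replicates 1 to 3. These comparisons use the same 8 arrays as those of the enzymes, and whether the lists differ was not tested.

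**Figure D4:**
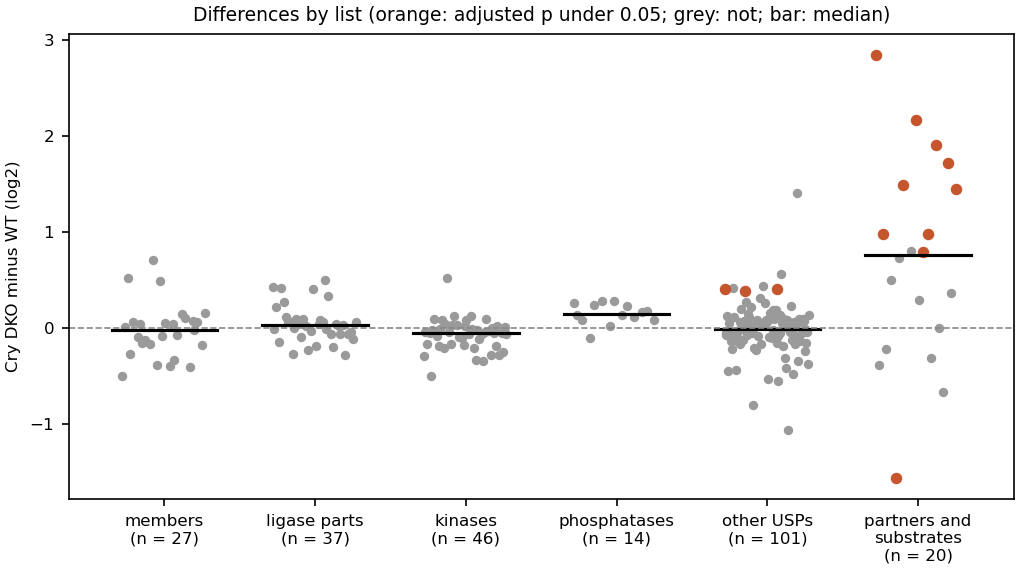
Difference between Cry DKO and WT lines (y axis, log2) of every probe set of the cryptochromes and turnover enzymes (members) and of 5 lists of related genes, with the number of probe sets under each name; USPs are ubiquitin specific proteases, orange points passed an adjusted p of 0.05 in limma, grey points did not, and black bars are medians. The members spread from -0.50 to 0.71 around a median of -0.016, and the partners and substrates have a median of 0.76.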

How the data were processed

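The authors deposited log2 signals of 30506 probe sets on 8 arrays (the base is inferred from the range, 0.068 to 14.3, and every fold rests on it). The submitters' processing notes name GCOS, with no version; probe summary, normalisation and genome build were not given in the sources used here. Because medians of the 8 arrays nearly coincide, no further scaling was applied, and a change in total RNA per cell would be hidden. GEO's platform annotation gave 24838 probe sets 1 gene, 658 several and 4949 none.

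All 30445 probe sets outside 61 controls were fitted with limma 3.58.1 in R 4.3.3 (intensity trend, no floor, no covariate). The fit was tested on simulated data. Cry1 and Cry2 had exact permutation tests.

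Genes were named by a rule: all member probe sets, called list members or else the 2 of smallest p, and 3 genes most like Cry1 and Cry2. Members, lists and tests were chosen with earlier results of these data known. Proteins were not compared. Deviations of same-numbered lines correlated at 0.092, 0.032, 0.050 and -0.016, so numbers were not taken as pairs. Alternatives are in the closing section.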

Additional observations from a re-analysis of the deposited data

Results flagged for a closer look

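In 6 of 54 groups of 4 lines, 1 line lay far from the other 3 by Dixon's criterion; chance alone gives about 1 in 20. Csnk1d 1437690_x_at read 10.34 in Cry DKO replicate 4, against 10.48 to 10.51 in the others. Csnk1e 1417175_at read 9.55 in Cry DKO replicate 1, against 9.77 to 9.79. Btrc 1443142_at read 4.31 in WT replicate 1, against 5.13 to 5.26, and Fbxw11 1438336_at read 5.04 in the same line, against 4.27 to 4.37. Fbxw11 1425462_at read 10.04 in Cry DKO replicate 4, against 10.25 to 10.26. Usp7 1419920_s_at read 9.83 in Cry DKO replicate 2, against 9.98 to 9.99.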

How the results depend on the processing

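Of 485 refitted differences of the 27 probe sets, 2 passed, both of Usp7 1419921_s_at: with a replicate block (adjusted p = 0.0445) and without WT replicate 4. The count of called probe sets of the members was 1 with the replicate block, 0 to 1 without 1 line and 0 in the other alternatives, such as the mean of the probe sets of a gene, added after seeing the data. Of ligase probe sets 1 was called with the replicate block (Mdm2), and of phosphatases 1 with the floor at the 40th percentile, with 1 probe set per gene and at an adjusted p of 0.1. The lists' alternatives were added after seeing the data. Other proteases had 1 call with 1 probe set per gene and 0 with no intensity trend. Partners and substrates had 5 with that floor, 4 with 1 probe set per gene, 6 with no intensity trend and 4 on their own spread only. The whole table had 69 calls with no intensity trend, 166 on own spread only, 260 at an adjusted p of 0.01, 1893 at 0.1 and 484 to 775 without 1 line. The exact p of Cry1 ran from 0.0286 to 0.257 without 1 line. The sign turned for 6 probe sets, all near 0. Without 1 line, Csnk1d 1418889_a_at ran from -0.061 to 0.039, Btrc 1425680_a_at from -0.24 to 0.025 and 1457305_at from -0.11 to 0.098, Fbxw11 1438336_at from -0.035 to 0.23, and Usp7 1437118_at from -0.057 to 0.14 and 1438249_at from -0.038 to 0.084. With array weights Csnk1d 1418889_a_at had 0.0065 and Fbxw11 1438336_at -0.0019. The cause of these moves was not tested. Dim signal limits precision: the median SD within a group was 0.43 below the floor and 0.14 above it.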
